A study of Mus musculus with 11 samples.

Results

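The 38 genes described here are markers of blood vessels, read out in 11 mouse high-grade gliomas by RNA sequencing. They were taken by symbol from a table of 27687 genes and fall into 5 groups. There are 15 general endothelial genes, 7 genes of the blood-brain barrier endothelium, 4 genes of leaky or sprouting vessels, 8 pericyte genes and 4 smooth muscle genes. All 38 were found in the table, all 38 passed the filter on low counts, and none had 0 reads in any tumour.

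The comparison is between 9 tumours labelled as having prolonged Ezh2 knockdown and 2 control tumours labelled as having none. All 11 grew in the brains of NOD-SCID mice, which lack functional B and T cells, after injection of glioma-initiating cells. These cells came from neural stem cells of the subventricular zone of mice aged 7 days with the compound conditional genotype p53;Ink4a/Arf;Krasv12;LucR, recombined in culture by lentiviral CMV-Cre. The cells of both groups carried FH1-tUTG-shEzh2, a short hairpin against Ezh2 that doxycycline switches on, and had been sorted for GFP. Per the series' design text mice drank doxycycline or not, whereas the labels list doxycycline at 2 mg/ml in 1% sucrose for each of the 11 tumours. If the controls had none, an effect of the drug and one of the hairpin cannot be told apart. The labels give neither the sex of the hosts nor the number of cell preparations, so that the p-values reflect no more than the scatter among these tumours, and part of that scatter may be technical.

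Vessels of a brain tumour are lined by endothelial cells of the host and wrapped by pericytes and, on larger vessels, smooth muscle. In healthy brain the endothelium forms the blood-brain barrier: tight junctions seal neighbouring cells, few vesicles cross them, and transporters import nutrients and pump drugs out. High-grade gliomas are known for vessels that have lost part of this barrier and leak. The counts come from whole tumours, so that they do not tell which cell made an RNA, and fewer cells of a type cannot be told apart from less RNA per cell.

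Libraries held between 11209233 and 18638382 counts. Ezh2, the histone methyltransferase that the hairpin targets, had 18.7, 14.9, 30.4, 10.6, 14.6, 11.2, 8.31, 7.27 and 30.1 CPM (read counts scaled to the effective size of each library) in knockdown tumours 1 to 9, against 45.3 and 52.7 CPM in controls 1 and 2. Every knockdown tumour lay below both controls (exact two-sided permutation p = 0.0182, the smallest the 55 splits allow), and the log2 fold change was -1.59 ± 0.44 (SE; edgeR, adjusted p = 0.0225). Without control 1 the adjusted p of Ezh2 was 0.11, and without control 2 it was 0.138. Xist, the RNA of the inactive X chromosome, was between 41.4 and 106 CPM in knockdown tumours 2 to 6 and at 74.2 and 131 CPM in the controls, but between 0.108 and 1.10 CPM in knockdown tumours 1, 7, 8 and 9. Since these 4 libraries stand apart and vessels belong to the host, counts are also given for the 7 libraries with Xist at 10 CPM or more. Knockdown tumours 7 and 9, which earlier work on these data had set apart, were left out together in a further fit.

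Of the 38 vascular genes, 12 rose and 5 fell in the knockdown tumours and 21 did not pass (quasi-likelihood test of edgeR, adjusted after Benjamini and Hochberg over all genes tested, threshold 0.05). The 12 that rose are 31.6% of the genes, where 10.3% of the 16241 genes tested rose, and the 5 that fell are 13.2%, where 13.0% of all genes fell. The median log2 fold change of the 38 genes was 0.83, against 0.07 over all genes tested. In 12 of the 38 genes (31.6%) all knockdown tumours lay above both controls, where this held for 13.3% of all genes tested. In 4 of the 38 all lay below both, where this held for 13.8% of all genes tested. The 38 did not move as a block. General endothelial genes were mostly higher, barrier genes went both ways, Plvap of leaky vessels was higher, 1 pericyte gene was higher and 1 lower, and the contractile genes Tagln and Cnn1 were lower. The count rests on both controls together: without control 1 it was 3 higher and 1 lower, and without control 2 it was 2 higher and 4 lower. In the 7 libraries with Xist, 13 were higher and 4 lower, and without knockdown 7 and 9 it was 11 and 6.

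**Figure D1:**
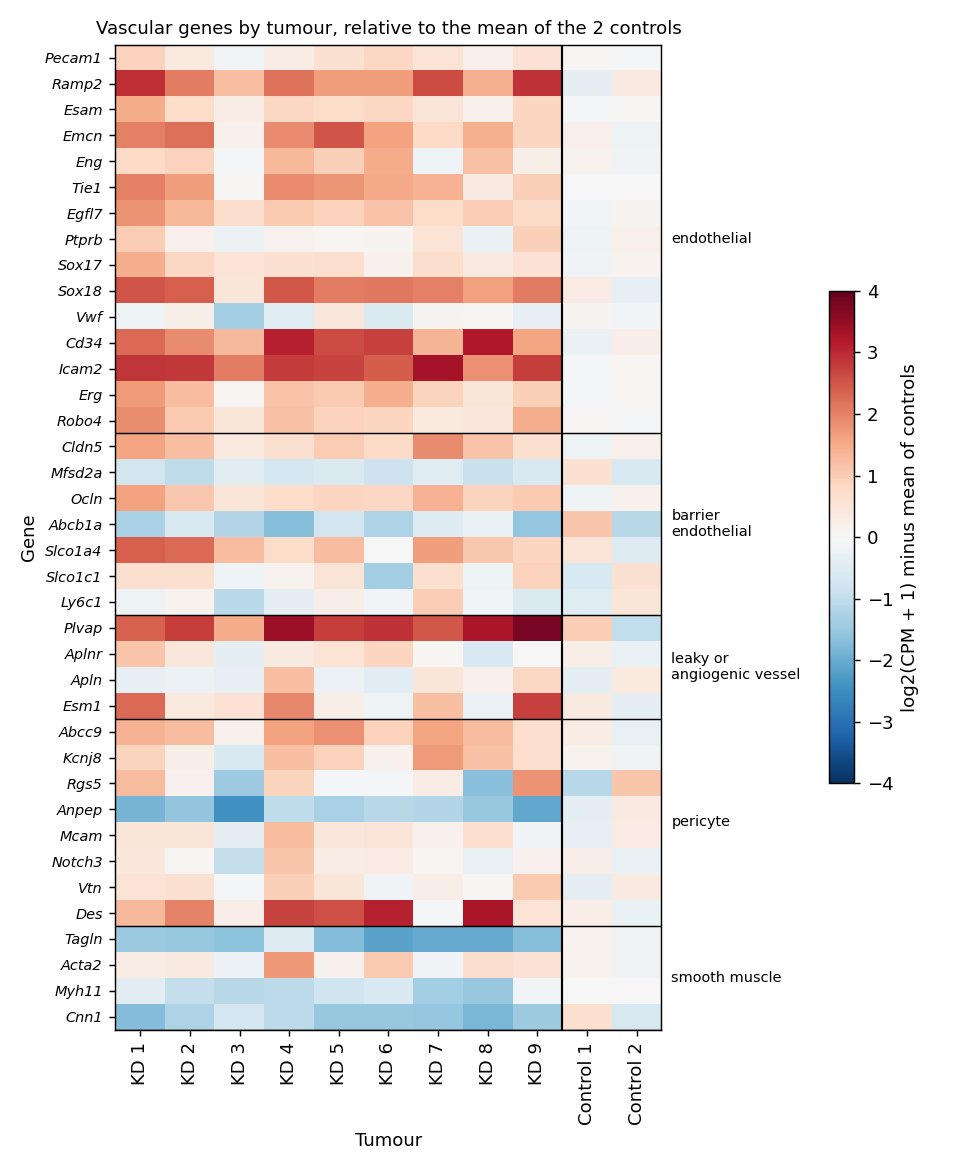
Each of the 38 vascular genes (rows, by group) in each tumour (columns, the 9 knockdown tumours, KD, left of the 2 controls). Colour gives log2(CPM + 1) minus the mean of the controls for that gene. Icam2, Cd34, Sox18 and Plvap are red in every knockdown tumour, Anpep, Tagln and Cnn1 are blue in every one, and Mfsd2a and Abcb1a are high in control 1 only.

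**Figure D2:**
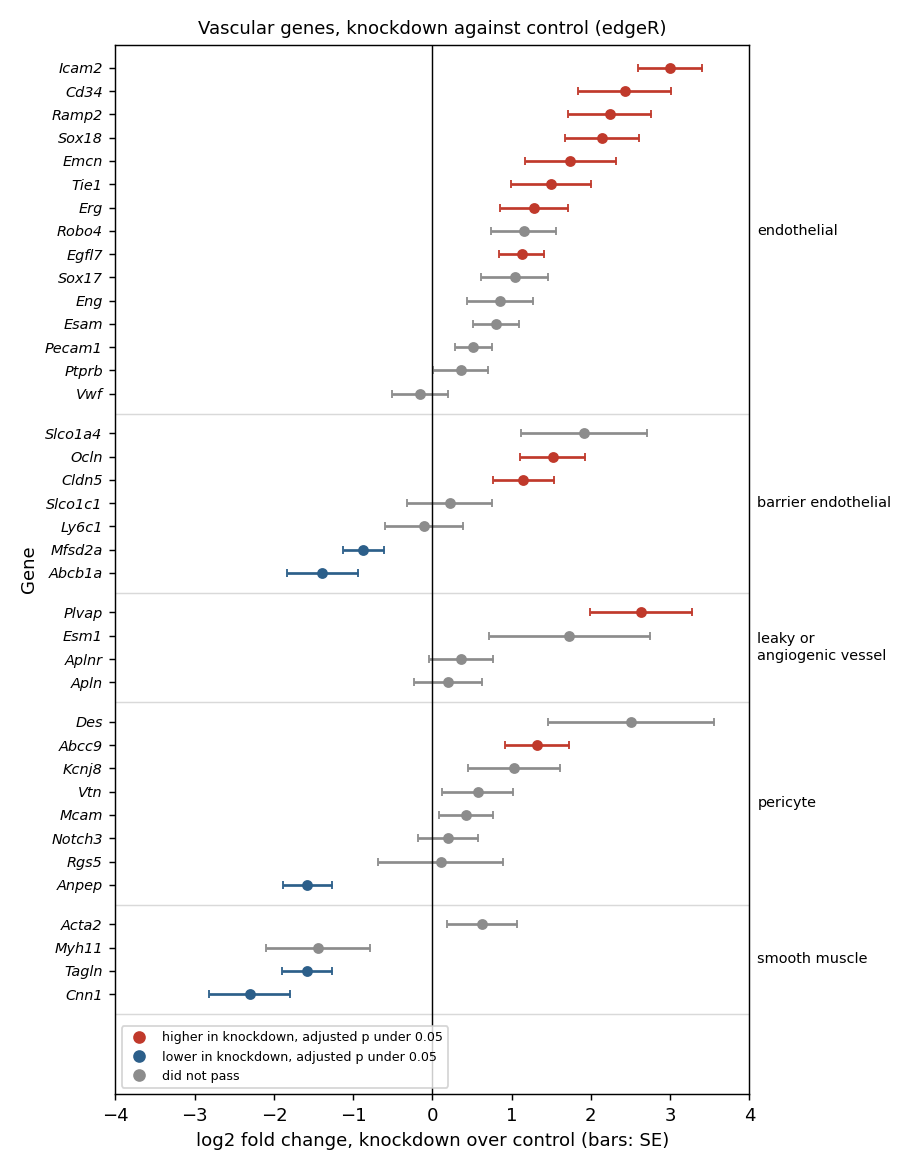
Log2 fold change of each vascular gene, knockdown over control, with its SE from edgeR, ordered within groups. Red points passed as higher (12 genes), blue points passed as lower (5 genes) and grey points did not pass (21 genes).

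Among the 15 general endothelial genes 8 rose, which is 53.3%, against 10.3% of all genes tested. A positive log2 fold change was found in 14 of the 15, with a median of 1.15. None fell: the count of lower genes was 0 by edgeR, 0 at an unadjusted p under 0.05, and 0 by DESeq2 and limma-voom. In 9 of the 15 all knockdown tumours lay above both controls, where this held for 13.3% of all genes tested.

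The clearest change was in Icam2, an adhesion molecule that sits on the endothelial surface and at cell junctions. Icam2 (ENSMUSG00000001029, mm9 chromosome 11, 106238970 to 106249389) ranged from 14.4 to 42.0 CPM with a median of 28.1 CPM in the knockdown tumours, against 3.08 and 3.57 CPM in the controls. The lowest knockdown tumour was thus several times above either control. The log2 fold change was 3.00 ± 0.40 (SE; edgeR, adjusted p = 0.000583), or 7.98-fold, and Icam2 kept its call whichever tumour was left out (log2 fold changes between 2.86 and 3.11).

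Cd34, a sialomucin of endothelial and blood progenitor cells, ranged from 45.6 to 174 CPM with a median of 89.2 CPM in the knockdown tumours, against 14.8 and 21.8 CPM in the controls. Its groups did not overlap, and the fold was 5.38 (log2 2.43 ± 0.59, edgeR, adjusted p = 0.0131). Cd34 was highest in knockdown tumour 8, where 3 of the 15 endothelial genes, Icam2, Esam and Ptprb, were at their lowest among the knockdown tumours. Of the 8 fibroblast genes given below, Dcn and Lum were also highest in that tumour, while the others were not. Which cells made the Cd34 RNA was not tested. Ramp2, the partner that turns the calcitonin receptor-like receptor into an adrenomedullin receptor, ranged from 27.5 to 93.5 CPM with a median of 50.6 CPM in the knockdown tumours, against 8.77 and 14.8 CPM in the controls. It rose 4.72-fold (log2 2.24 ± 0.52, adjusted p = 0.0108) without overlap. Sox18, a transcription factor of vessel and lymphatic development, ranged from 13.1 to 56.1 CPM with a median of 41.5 CPM in the knockdown tumours, against 11.7 and 6.89 CPM in the controls. It rose 4.41-fold (log2 2.14 ± 0.47, adjusted p = 0.00799), with knockdown tumour 3 close to control 1 and the other 8 well above.

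Emcn, Tie1, Egfl7 and Erg rose by less. Endomucin, the product of Emcn, is a sialoglycoprotein of capillary and venous endothelium, and Emcn rose 3.35-fold (log2 1.74 ± 0.57, edgeR, adjusted p = 0.0448). Tie1, an orphan receptor kinase that modulates the angiopoietin receptor, rose 2.83-fold to between 11.3 and 47.6 CPM in the knockdown tumours, against 10.8 and 11.1 CPM in the controls (adjusted p = 0.0483). Egfl7, a secreted factor of the endothelium, rose 2.18-fold to between 29.5 and 64.2 CPM in the knockdown tumours, against 16.2 and 19.2 CPM in the controls (adjusted p = 0.0151). Erg, an ETS transcription factor that maintains endothelial identity, rose 2.43-fold to a median of 7.27 CPM in the knockdown tumours, against 2.77 and 3.26 CPM in the controls (adjusted p = 0.0472). In Emcn and Erg the lowest knockdown tumour, number 3, lay between the 2 controls at 11.7 and 3.24 CPM, so that the groups overlapped.

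Pecam1, the junction protein CD31 and a common endothelial marker, was 1.43-fold higher without passing. It ranged from 22.9 to 47.3 CPM with a median of 36.1 CPM in the knockdown tumours, against 25.4 and 23.9 CPM in the controls, and 8 of 9 knockdown tumours lay above both controls. Its log2 fold change of 0.52 ± 0.23 did not pass (edgeR, adjusted p = 0.126). Vwf, the clotting factor stored in endothelial granules, had the only negative value of the group, -0.15 ± 0.35, at 27.7 ± 9.40 CPM in the knockdown tumours (SD, n = 9) and 30.8 ± 3.09 CPM in the controls (SD, n = 2). Eng, a co-receptor for TGF-beta, Ptprb, the endothelial tyrosine phosphatase, and Esam, a junction adhesion molecule, had log2 fold changes of 0.85 ± 0.42, 0.36 ± 0.35 and 0.80 ± 0.29. Sox17, a factor of arterial endothelium, and Robo4, a receptor that stabilises vessels, stood at 1.04 ± 0.42 and 1.15 ± 0.41. None of these 6 genes beyond Pecam1 passed, although in Esam, Sox17 and Robo4 all knockdown tumours lay above both controls.

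These endothelial calls differ in how far they rest on single tumours. Without control 1 only Icam2 and Sox18 passed, and without control 2 only Icam2 and Ramp2. Without control 1 Ramp2 was at 1.91 on the log2 scale (edgeR, adjusted p = 0.131), and without control 2 Sox18 was at 1.80 (adjusted p = 0.0907). Cd34 and Egfl7 lost their calls without either control, Cd34 at 2.17 and 2.73 and Egfl7 at 1.00 and 1.25. Emcn, Tie1 and Erg lost theirs without either control and also without any one of knockdown tumours 1, 2, 4, 5 and 6, Emcn besides without 8, Tie1 without 7, and Erg without 7 or 9. Over all tumours left out in turn their log2 fold changes lay between 1.54 and 1.97 for Emcn, 1.398 and 1.61 for Tie1, and 1.17 and 1.401 for Erg. Without knockdown 3, Pecam1, Esam and Robo4 passed as well. Esam and Robo4 also passed without knockdown 8, Esam without knockdown 1 and Robo4 without knockdown 7. The median of the group stayed at 1.17 without control 1 and 1.27 without control 2, and in the 7 libraries with Xist 9 of the 15 rose at a median of 1.05. Without knockdown 7 and 9 the count was 6.

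The proximal promoters of 4 of the endothelial genes that rose are shown because they carry the letters that ETS factors, the family of Erg, are known to bind. The sequences are from RefSeq on GRCm38.p6, 250 bases before to 50 after a start site, on the gene's strand. Capitals mark AGGAAG or its reverse complement CTTCCT, searched on both strands with no overlap between matches in these 4.
Emcn, chr3:137340828-137341127, plus strand: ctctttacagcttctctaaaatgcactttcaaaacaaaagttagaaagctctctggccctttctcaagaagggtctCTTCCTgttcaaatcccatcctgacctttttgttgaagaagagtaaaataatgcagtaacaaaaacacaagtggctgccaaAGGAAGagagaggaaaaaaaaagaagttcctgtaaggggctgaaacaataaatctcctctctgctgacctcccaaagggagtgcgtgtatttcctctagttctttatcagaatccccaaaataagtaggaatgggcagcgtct
Tie1, chr4:118489800-118490099, minus strand: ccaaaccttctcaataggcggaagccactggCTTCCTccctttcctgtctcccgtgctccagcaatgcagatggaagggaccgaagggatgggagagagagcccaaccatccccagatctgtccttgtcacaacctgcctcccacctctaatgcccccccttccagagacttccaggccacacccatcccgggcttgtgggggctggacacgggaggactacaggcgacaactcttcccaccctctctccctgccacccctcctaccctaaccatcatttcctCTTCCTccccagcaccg
Cd34, chr1:194938571-194938870, plus strand: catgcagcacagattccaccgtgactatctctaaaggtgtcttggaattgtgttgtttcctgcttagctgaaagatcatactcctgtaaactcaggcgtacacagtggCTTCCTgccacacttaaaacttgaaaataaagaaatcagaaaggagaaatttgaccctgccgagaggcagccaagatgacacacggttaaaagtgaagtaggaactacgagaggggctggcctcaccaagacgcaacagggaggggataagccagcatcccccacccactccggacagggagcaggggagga
Egfl7, chr2:26583615-26583914, plus strand, one of 3 start sites: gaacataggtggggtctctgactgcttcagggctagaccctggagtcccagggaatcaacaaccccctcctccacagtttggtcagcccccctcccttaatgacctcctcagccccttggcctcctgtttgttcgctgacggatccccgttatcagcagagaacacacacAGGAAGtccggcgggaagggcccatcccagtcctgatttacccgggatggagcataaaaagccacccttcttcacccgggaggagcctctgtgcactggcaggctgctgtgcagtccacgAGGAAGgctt
RefSeq promoters were matched for 26 of the 38 vascular genes, with 32 start sites. Of 11 endothelial start sites 8 held the motif, which is 72.7%, as did 4 of 9 of barrier genes, 1 of 2 of leaky vessel genes, and 0 of 8 and 0 of 2 of pericyte and smooth muscle genes. Over all 32851 promoters of this length the share was 35.4%. Sequences were matched for 7 of the 15 endothelial genes, not for Icam2, Ramp2, Sox18, Pecam1, Esam, Ptprb, Sox17 and Vwf. All 7 had the motif at one start site or more: Emcn, Tie1, Cd34, Egfl7 and Erg, which rose, and Eng and Robo4, which did not pass. Over all genes with a promoter sequence, 10383 of 27025 had it. Cldn5 and Ocln, barrier genes that rose, had no match in these windows, while Abcb1a, which fell, had 2. A match is only a match of letters, and the motif was chosen with the results known.

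The 7 barrier genes split. Of them 2 rose, both coding for tight junction proteins, 2 fell, a lipid transporter and a drug pump, and 3 did not pass, with a median log2 fold change of 0.22. That is 28.6% each way, where 10.3% of all genes tested rose and 13.0% fell. Both falls rest on control 1 alone, as given below. Slco1a4 and Slco1c1, also transporters, had positive log2 fold changes and did not pass. Cldn5, the main claudin that seals brain endothelium (ENSMUSG00000041378, mm9 chromosome 16, 18776940 to 18778353), ranged from 17.7 to 52.4 CPM with a median of 27.8 CPM in the knockdown tumours, against 11.3 and 15.6 CPM in the controls. The groups did not overlap, and Cldn5 rose 2.21-fold (log2 1.15 ± 0.38, edgeR, adjusted p = 0.0486). Ocln, occludin of the same junctions, was scarce at between 2.00 and 5.64 CPM in the knockdown tumours, against 0.923 and 1.44 CPM in the controls, and rose 2.86-fold without overlap (log2 1.52 ± 0.41, adjusted p = 0.0215).

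Mfsd2a imports docosahexaenoic acid as a lysolipid and keeps transcytosis low, and Abcb1a codes for the P-glycoprotein that pumps drugs back into blood. Mfsd2a ranged from 7.49 to 11.5 CPM with a median of 9.66 CPM in the knockdown tumours, against 25.1 and 10.4 CPM in the controls (log2 -0.87 ± 0.26, edgeR, adjusted p = 0.0305). Abcb1a ranged from 9.73 to 27.1 CPM with a median of 14.4 CPM in the knockdown tumours, against 74.8 and 15.03 CPM in the controls (log2 -1.39 ± 0.45, adjusted p = 0.0432). In both genes control 1 was high and control 2 lay inside the range of the knockdown tumours. With control 1 left out, Mfsd2a was at -0.10 (adjusted p = 0.855) and Abcb1a at 0.19 (adjusted p = 0.862), so that both falls rest on that one library. Neither passed in the 7 libraries with Xist. Without control 2 they were -1.38 and -2.13. Abcb1a also lost its call without any one of knockdown tumours 1, 2, 3, 4, 5, 6 and 9. Abcb1a has a close paralog, Abcb1b, with which reads may have been shared.

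Slco1a4 and Slco1c1, organic anion transporters of which Slco1c1 carries thyroid hormone, had log2 fold changes of 1.91 ± 0.80 (edgeR, adjusted p = 0.102) and 0.22 ± 0.53. Slco1a4 ranged from 1.18 to 10.7 CPM with a median of 4.25 CPM in the knockdown tumours, against 2.15 and 0.564 CPM in the controls, and 8 of 9 knockdown tumours lay above both controls. Slco1c1 was lowest in knockdown tumour 6, at 2.45 CPM, and between 6.57 and 15.8 CPM in the other 8, against 4.77 and 12.4 CPM in the controls. Ly6c1, a surface protein of brain endothelium that monocytes also carry, stood at -0.10 ± 0.49 and has a near-identical neighbour, Ly6c2, with which reads may have been shared. The calls of Cldn5 and Ocln were lost without control 1, at 0.93 and 1.24, and without control 2, at 1.39 (adjusted p = 0.129) and 1.87 (adjusted p = 0.069). Cldn5 also lost its call without any one of knockdown tumours 1, 2, 5, 6 and 8 (edgeR, adjusted p at most 0.318 over all tumours left out).

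Plvap, which forms the diaphragms of fenestrae and caveolae and is absent from vessels with an intact barrier, was the most abundant vascular gene of the knockdown tumours. It had 421, 559.9, 230.4, 877, 555, 608, 462, 794 and 1146 CPM in knockdown tumours 1 to 9, against 162 and 40.8 CPM in controls 1 and 2. Even the lowest knockdown tumour, number 3, lay above both controls, and control 1 lay well above control 2. Plvap (ENSMUSG00000034845, mm9 chromosome 8, 74021653 to 74035668) rose 6.20-fold (log2 2.63 ± 0.64, edgeR, adjusted p = 0.0135). Left without control 1, Plvap was at 3.94 (adjusted p = 0.0179), and without control 2 it was at 1.95 and did not pass (adjusted p = 0.105). The model of Gtpbp3 overlaps Plvap, and Gtpbp3 itself had a log2 fold change of 0.38 (adjusted p = 0.231).

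Of the 4 genes of leaky or sprouting vessels Plvap alone passed, and all 4 had positive values with a median of 1.04. Esm1, a proteoglycan of endothelial tip cells, was uneven: it ranged from 1.401 CPM in knockdown tumour 8 to 17.7 CPM in knockdown tumour 9, with a median of 3.24 CPM, against 2.62 and 1.19 CPM in the controls (log2 1.73 ± 1.02, edgeR, adjusted p = 0.237). Apln, the apelin peptide made by tip cells, had a median of 33.0 CPM in the knockdown tumours, against 29.5 and 50.8 CPM in the controls (log2 0.20 ± 0.43). Aplnr, its receptor, had a median of 17.95 CPM in the knockdown tumours, against 16.7 and 11.4 CPM in the controls (log2 0.36 ± 0.41). The groups overlapped in all 3.

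**Figure D3:**
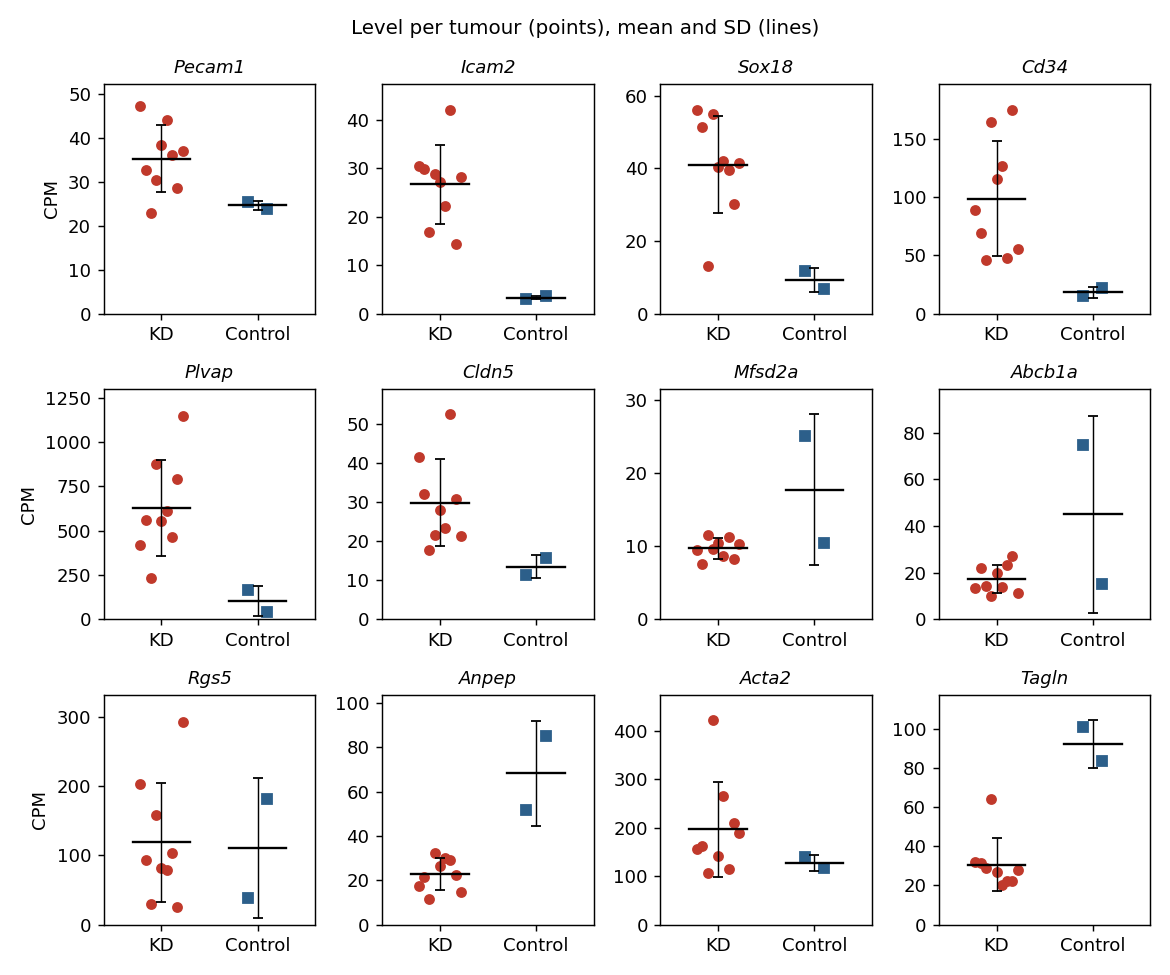
CPM of 12 vascular genes in each tumour (red points, knockdown, KD; blue squares, control), with the mean and SD of each group as lines. Icam2, Sox18, Cd34, Plvap and Cldn5 lie above the controls in all 9 knockdown tumours, Anpep and Tagln lie below, Pecam1, Rgs5 and Acta2 overlap, and Mfsd2a and Abcb1a overlap with control 2.

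Of the 8 pericyte genes 1 rose, 1 fell and 6 did not pass. That is 12.5% each way, near the 10.3% of all genes tested that rose and the 13.0% that fell. Log2 fold changes were positive in 7 of the 8, with a median of 0.50. Abcc9, the sulfonylurea receptor subunit of the pericyte potassium channel, ranged from 10.6 to 35.9 CPM with a median of 23.8 CPM in the knockdown tumours, against 11.6 and 7.45 CPM in the controls. It rose 2.50-fold (log2 1.32 ± 0.40, edgeR, adjusted p = 0.0346), with knockdown tumour 3 below control 1. Kcnj8, the pore subunit of the same channel and its neighbour on chromosome 6, had a median of 6.42 CPM in the knockdown tumours, against 3.46 and 2.63 CPM in the controls (log2 1.03 ± 0.58, adjusted p = 0.219).

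Anpep, aminopeptidase N or CD13, is found on pericytes and also on fibroblasts and myeloid cells. It ranged from 11.5 to 32.1 CPM with a median of 22.6 CPM in the knockdown tumours, against 51.6 and 85.1 CPM in the controls. All 9 knockdown tumours lay below both controls, and Anpep fell 2.99-fold (log2 -1.58 ± 0.31, edgeR, adjusted p = 0.00447). Without control 2 it was at -1.18 and did not pass (adjusted p = 0.0919). Abcc9 lost its call without either control, at 1.67 and 1.03, and without any one of knockdown tumours 1, 2 and 4.

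Rgs5, a regulator of G protein signalling and a standard pericyte marker, varied more within the groups than between them. It had 203, 94.1, 29.9, 159, 81.5, 79.4, 103, 25.7 and 293 CPM in knockdown tumours 1 to 9, against 38.7 and 182 CPM in controls 1 and 2. Its log2 fold change was 0.10 ± 0.79 (edgeR, adjusted p = 0.938), and it was 1.61 without control 2 and -0.62 without control 1. Des, the intermediate filament desmin, ranged from 2.50 CPM in knockdown tumour 7 to 34.2 CPM in knockdown tumour 8, with a median of 13.6 CPM, against 3.46 and 2.07 CPM in the controls (log2 2.51 ± 1.04, adjusted p = 0.101). Without knockdown 7 and 9 Des passed as higher, as it did in the 7 libraries with Xist. Mcam, the adhesion molecule CD146 of pericytes and endothelium, Notch3, the Notch receptor of mural cells, and Vtn, vitronectin, had log2 fold changes of 0.43 ± 0.35, 0.20 ± 0.38 and 0.57 ± 0.45 and did not pass.

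Smooth muscle genes were mostly lower, with Cnn1 and Myh11 scarce, while their summed level overlapped that of the controls. Of 4, 2 fell and none rose, and 3 had negative values, with a median log2 fold change of -1.52. The count of higher genes was 0 by edgeR, also 0 at an unadjusted p under 0.05 and 0 by DESeq2 and limma-voom. Tagln, the actin-binding protein SM22 alpha (ENSMUSG00000032085, mm9 chromosome 9, 45737711 to 45744141), ranged from 20.2 to 64.2 CPM with a median of 27.8 CPM in the knockdown tumours, against 101 and 83.6 CPM in the controls. It fell 3.00-fold without overlap (log2 -1.59 ± 0.32, edgeR, adjusted p = 0.005), the highest knockdown tumour being number 4. Cnn1, the contractile regulator calponin 1, ranged from 0.323 to 1.86 CPM with a median of 0.644 CPM in the knockdown tumours, against 6.23 and 2.00 CPM in the controls, and fell 4.95-fold (log2 -2.31 ± 0.52, adjusted p = 0.00894). Both calls were lost without control 1, Tagln at -1.45 (adjusted p = 0.0682) and Cnn1 at -1.28 (adjusted p = 0.295). Without control 2 Cnn1 was at -2.91.

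Myh11, the smooth muscle myosin heavy chain, was close to the floor at between 0.108 and 1.92 CPM in the knockdown tumours, against 2.23 and 2.13 CPM in the controls, where 3 counts correspond to between 0.162 and 0.273 CPM. All 9 knockdown tumours lay below both controls, and its log2 fold change of -1.45 ± 0.66 did not pass (edgeR, adjusted p = 0.130). In the 7 libraries with Xist, and without knockdown 7 and 9, Myh11 passed as lower. Acta2, smooth muscle actin, went the other way: it ranged from 107 to 423 CPM with a median of 163 CPM in the knockdown tumours, against 139 and 116 CPM in the controls (log2 0.62 ± 0.44, adjusted p = 0.328). Acta2 and Tagln are also made by fibroblasts and by other cells with a mesenchymal programme, so that neither marks vessel walls alone.

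Levels of different genes were compared per kilobase of exon (GENCODE vM21 models). Plvap was first of the 38 vascular genes in the knockdown tumours at 316 CPM per kilobase and the fourth in the controls at 51.1. Acta2 (96.6 in knockdown tumours, 62.7 in controls) and Mcam (71.8 and 53.4) held close places in both groups. Tagln was at place 12 in the knockdown tumours with 19.2 CPM per kilobase and at place 2 in the controls with 57.8. Icam2 was at place 10 in the knockdown tumours with 20.8 and at place 24 in the controls with 2.59.

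Within each knockdown tumour the groups kept a partly common order, taken as the median over a group of log2(CPM + 1) minus the gene's mean in the controls. The endothelial median was above 0 in 9 of 9 knockdown tumours, between 0.30 in tumour 3 and 1.81 in tumour 1, and was the highest of the 5 groups in 6 of them. The share of mitochondrial counts, a sign of RNA quality, was 12.1%, 13.5% and 12.2% in tumours 1, 2 and 6. These tumours had the highest endothelial medians at 1.81, 1.23 and 1.44. The other 6 knockdown tumours had lower shares and lower medians. Tumours 3, 5 and 8 had shares of 7.77%, 7.96% and 8.54% and medians of 0.30, 0.96 and 0.48. Tumours 4, 7 and 9 had shares of 5.32%, 4.74% and 3.43% and medians of 1.17, 0.74 and 0.94. The controls had 4.28% and 5.45%, and the part of this share in the result was not tested. The smooth muscle median was below 0 and the lowest of the groups in all 9, between -1.67 in tumour 8 and -0.77 in tumour 4. The barrier median was below the endothelial one in 8 of 9, tumour 7 being the exception at 0.97 for barrier genes and 0.74 for endothelial genes. Leaky vessel genes led in tumours 4 and 9, with medians of 1.56 and 1.77. The pericyte median was above 0 in 8 of 9 knockdown tumours, all but number 3, and lay below the endothelial one in 9 of 9. By construction the 2 controls mirror each other around 0, and their largest distance from it was 0.31, for the leaky vessel genes. All 9 knockdown values are set against the same 2 controls, so that they are not independent checks of the order. In the fits without control 1 the median log2 fold change was 0.19 for barrier, 0.33 for pericyte and 1.17 for endothelial genes. Without control 2 these medians were 1.06, 0.94 and 1.27.

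**Figure D4:**
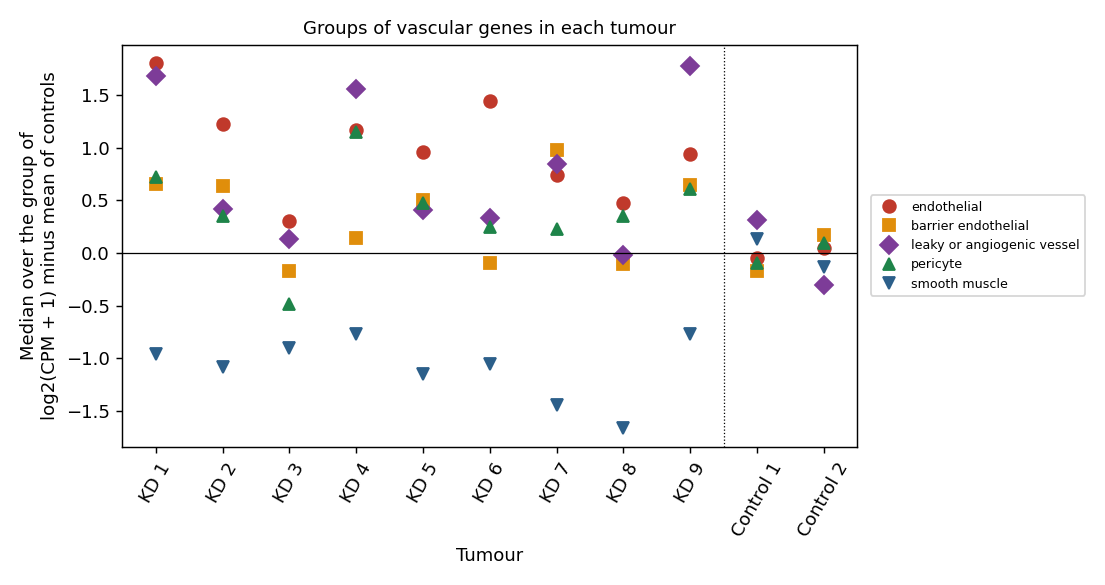
Median over each group of vascular genes of log2(CPM + 1) minus the mean of the controls, for each tumour (the 9 knockdown tumours, KD, left of the 2 controls). Endothelial genes lie between 0.30 and 1.81 and smooth muscle genes between -1.67 and -0.77 in the knockdown tumours. Barrier genes lie below the endothelial ones in 8 of 9 knockdown tumours and pericyte genes in 9 of 9. All values are set against the same 2 controls, and the gaps between groups changed with the control left out.

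The knockdown tumours also differed among themselves. Tumour 1 was the highest of the 9 in 13 of the 38 genes, 10 of them endothelial, and tumour 3 was the lowest in 19, with 9 endothelial and 5 pericyte genes among them. Tumour 3 had the highest Ezh2 of the knockdown tumours at 30.4 CPM. Tumour 9, at 30.1 CPM, was the lowest in 0 of the 38 genes and had the most Plvap. A relation of the Ezh2 level to the vascular genes was not tested. The ratio of the highest to the lowest knockdown tumour was 2.07 for Pecam1 and 1.54 for Mfsd2a, the most even of their groups, and 11.4 for Rgs5, 12.6 for Esm1, 13.7 for Des and 17.9 for Myh11.

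Ratios of 2 genes within a library set markers against each other where the amount of vessel RNA cancels in part. Which cells made the Pecam1 RNA was not tested. The ratio of Plvap to Pecam1 in CPM ranged from 8.89 to 31.0 with a median of 14.4 in the knockdown tumours, against 6.38 and 1.70 in the controls. It was above both controls in 9 of 9 knockdown tumours, and on the scale of log2(CPM + 1) the difference was 2.33 (exact two-sided permutation p = 0.0182, adjusted p = 0.109 over 6 ratios). That is the smallest p the 55 splits allow, and it did not pass after adjustment. The ratio of Plvap to Cldn5 ranged from 8.82 to 53.8 with a median of 19.9 in the knockdown tumours, against 14.3 and 2.61 in the controls (log2 difference 1.77, exact permutation p = 0.0909, adjusted p = 0.255). It lay above both controls in 6 of 9.

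Cldn5 per Pecam1 had a median of 0.771 in the knockdown tumours, against 0.446 and 0.652 in the controls, and 7 of 9 knockdown tumours lay above both (log2 difference 0.56, exact permutation p = 0.127, adjusted p = 0.255). Slco1a4 per Pecam1 differed by 0.80 (exact permutation p = 0.255, adjusted p = 0.382), with 6 of 9 above both controls. Rgs5 per Pecam1 had a median of 2.86 in the knockdown tumours, against 1.52 and 7.62 in the controls (log2 difference -0.35, exact permutation p = 0.727, adjusted p = 0.873). Acta2 per Pecam1 had a median of 4.96 in the knockdown tumours, against 5.49 and 4.85 in the controls (log2 difference 0.03, exact permutation p = 0.964, adjusted p = 0.964). With 1 control left out, the smallest p that 9 against 1 allows is above the threshold.

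**Figure D5:**
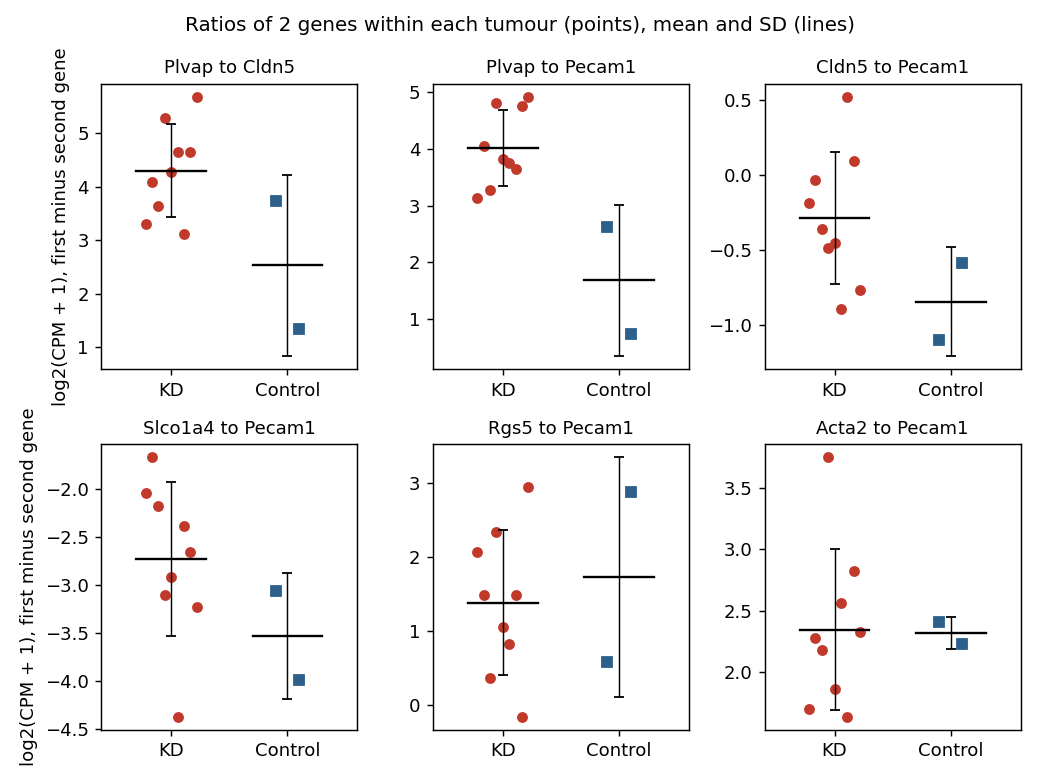
Differences of log2(CPM + 1) between 2 vascular genes within each tumour (red points, knockdown, KD; blue squares, control), with the mean and SD of each group as lines. Plvap to Pecam1 is above both controls in all 9 knockdown tumours, while Rgs5 to Pecam1 and Acta2 to Pecam1 lie on both sides of them.

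Across the 9 knockdown tumours, 4 pairs of genes were correlated on log2(CPM + 1), and none passed. Pecam1 and Rgs5 had Pearson's r = 0.63 (exact permutation p = 0.0675, adjusted p = 0.270) and Spearman's rho = 0.47 (exact p = 0.213, adjusted p = 0.717). Without the 2 tumours farthest from the median of Pecam1, numbers 1 and 3, r was 0.30. Pecam1 and Cldn5 had r = 0.46 (exact p = 0.216, adjusted p = 0.432) and rho = 0.35 (exact p = 0.359), and without tumours 1 and 3 r was -0.11. Pecam1 and Plvap had r = 0.25 (exact p = 0.516, adjusted p = 0.516) and rho = -0.05 (exact p = 0.912), and without tumours 1 and 3 r was -0.29. Rgs5 and Acta2 had r = 0.26 (exact p = 0.508, adjusted p = 0.516) and rho = 0.10 (exact p = 0.810), and without tumours 8 and 9 r was 0.47. Of single tumours left out, number 3 alone turned the sign of Pecam1 with Plvap, to r = -0.51, while without number 1 it was 0.47. Pecam1 with Cldn5 was at r = 0.31 without tumour 1 and 0.18 without tumour 3.

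Of 38 other genes of vessel growth, barrier signalling and mural cells, 37 were tested, of which 6 rose and 5 fell, with a median log2 fold change of 0.34. These are 16.2% and 13.5%, close to the 10.3% and 13.0% of all genes tested. Reck, a membrane protein that brain endothelium needs to read Wnt7 ligands, ranged from 25.0 to 42.9 CPM in the knockdown tumours, against 6.54 and 7.52 CPM in the controls (log2 2.23 ± 0.25, edgeR, adjusted p = 0.000238). Wnt7b, one of those ligands, ranged from 12.3 to 94.0 CPM with a median of 43.6 CPM in the knockdown tumours, against 768 and 291 CPM in the controls (log2 -3.46 ± 0.51, adjusted p = 0.000903). Wnt7a, the other, was scarce and did not pass. Nrp1, a co-receptor for VEGF and semaphorins, rose 2.90-fold to between 319 and 529 CPM in the knockdown tumours, against 118 and 173 CPM in the controls (adjusted p = 0.00144). Flt1, a VEGF receptor that also acts as a decoy, ranged from 31.5 to 54.6 CPM in the knockdown tumours, against 313 and 125 CPM in the controls (log2 -2.41 ± 0.23, adjusted p = 9.48e-05). Without control 1 Flt1 and Wnt7b were at -1.60 and -2.60, and all 4 genes kept their calls whichever tumour was left out. Pdgfrb, the receptor that recruits pericytes, is named after its values were seen: it had a median of 437 CPM in the knockdown tumours, against 96.9 and 83.6 CPM in the controls (log2 2.22 ± 0.49, adjusted p = 0.0082). Pdgfrb lost its call without either control, at 2.33 without control 1 and 2.12 without control 2.

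Markers of other cells moved between the groups too, and their part in the vascular values was not tested. The counts for these short lists stand beside 10.3% of all genes tested that rose and 13.0% that fell. Of 5 oligodendrocyte genes 2 rose, Mbp 10.2-fold among them, and the summed level of the 5 was between 232 and 342 CPM in the knockdown tumours, against 122 and 102 CPM in the controls. Of 5 neuron genes 2 rose, Snap25 6.24-fold and Rbfox3, which was between 0.636 and 3.84 CPM in the knockdown tumours, against 0.462 and 0.0626 CPM in the controls, and the sum was between 20.7 and 91.8 CPM in the knockdown tumours, against 26.3 and 25.2 CPM in the controls. Snap25 and Rbfox3 lost their calls without either control, with log2 fold changes of 3.58 and 4.69 without control 1 and 2.06 and 1.97 without control 2. Of 8 macrophage and microglia genes 6 fell, Itgam 2.89-fold and Cd68 2.62-fold among them, and the sum was between 178 and 337 CPM in the knockdown tumours, against 369.97 and 741 CPM in the controls. Without control 2 Cd68 was at -0.65 on the log2 scale and did not pass (edgeR, adjusted p = 0.0951).

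Of 8 fibroblast genes Pdgfra rose 2.31-fold and Col1a2 fell 18.1-fold, and the sum was between 881 CPM in tumour 9 and 4838 CPM in tumour 4, against 4721 and 4910.0 CPM in the controls. Pdgfra lost its call without either control, at log2 fold changes of 1.496 and 0.96. The lowest fibroblast sum and the most Rgs5 and Plvap were in the same tumour, number 9. Of 6 astrocyte genes none passed by edgeR, with 1 higher at an unadjusted p under 0.05, 1 by DESeq2 and 1 by limma-voom. The smallest p belonged to Gfap (log2 2.03 ± 0.81) and Aldh1l1 (0.89 ± 0.41), and the sum of the 6 was between 548 and 1485 CPM in the knockdown tumours, against 875 and 762 CPM in the controls. Of 5 ependymal and choroid plexus genes none passed by edgeR, 0 at an unadjusted p under 0.05, 1 lower by DESeq2 and 0 by limma-voom, with Clic6 at -0.40 ± 0.37 and Ttr at -1.04 ± 1.27, and sums between 34.1 and 323 CPM in the knockdown tumours, against 136 and 188 CPM in the controls. Of 5 platelet and red cell genes Ppbp fell 3.40-fold, a call lost without either control or without knockdown 1, 2 or 5, and the sum was between 24.8 and 111 CPM in the knockdown tumours, against 36.0 and 54.7 CPM in the controls. No gene of these 7 lists was at 0 in any tumour.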

How the data were processed

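The deposited file is one table of whole-number read counts per Ensembl gene and tumour, as its values show. Per the submitters' processing notes, TopHat 1.4.0, HTSeq and the mm9 build were used; the sources used here give neither their settings nor the use of strand. Coordinates of genes are those of the table, and exon lengths (GENCODE vM21) and promoters are of GRCm38. Without strand, overlapping genes cannot be told apart: another gene model overlaps 10 of the 38 vascular genes, among them 5 that were called, Ramp2, Egfl7, Cd34, Plvap and Tagln, while no overlapping partner of these 5 passed the test.

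Groups and replicate numbers are from the sample titles. Counts of all 11 libraries were fitted with edgeR 4.0.16 (R 4.3.3) after filterByExpr, which kept 16241 genes with 99.9% of the counts, with TMM scaling (factors between 0.919 and 1.08), estimateDisp, glmQLFit and glmQLFTest, no covariates, and p adjusted by Benjamini-Hochberg over all genes at 0.05. The SE is the log2 fold change divided by the square root of F. CPM values are TMM-scaled. Ratios and correlations use log2(CPM + 1) with exact permutation tests that enumerate all splits or pairings, two-sided. Alternatives were limma-voom (limma 3.58.1), DESeq2 1.42.0, RLE size factors, no filter, tumours left out and a replicate block. Between replicates, chi-square per degree of freedom was at least 11.2, far above sampling noise.

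The vascular genes, their groups and the other lists were chosen with earlier results of these data known. All 38 vascular genes are reported; for each other list, the text names up to 2 risen and 2 fallen genes, taken by p, or, if no gene passed, the 2 of lowest p. One gene that this rule would name is not reported here. The symbol Adgre1 was found under its older name, Emr1. The added fit on libraries with Xist at 10 CPM or more was chosen after seeing the data.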

Additional observations from a re-analysis of the deposited data

Results flagged for a closer look

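Of 45 values checked across the 9 knockdown tumours (the 38 vascular genes, Ezh2 and 6 ratios, on log2(CPM + 1)), 3 had one tumour far from the others, where chance alone flags about 1 in 20 groups. Sox18 was low in knockdown 3, at 13.1 CPM, the gap to the next tumour being 0.565 of the range of the group. Slco1c1 was low in knockdown 6, at 2.45 CPM, with a gap of 0.496 of the range. Tagln was high in knockdown 4, at 64.2 CPM, with a gap of 0.6 of the range. The critical value for 9 tumours is 0.493. Without these tumours Sox18 and Tagln kept their calls and Slco1c1 still did not pass.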

How the results depend on the processing

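With only 2 controls, calls depend on each of them. When single tumours were left out, the number of vascular genes higher in the knockdown tumours lay between 2 and 15 and the number lower between 1 and 5, both lowest counts coming from a fit with 1 control. In such a fit the lone control is assumed to vary like the knockdown tumours. With limma-voom 7 were higher and 3 lower. The log2 fold change of Ezh2 stayed between -1.76 and -1.49 and lost its call without either control. Over all genes 1290 passed without control 1 and 1750 without control 2, where with both controls 1674 were higher and 2116 lower.

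With the replicate number as a block, which rests on the pairs numbered 1 and 2, 5 genes were higher and 2 lower, Ezh2 was at -1.55 (edgeR, adjusted p = 0.0573), Vwf was at 0.022 and Apln at -0.30, and 686 of all genes passed. The labels do not say whether the numbers mark pairs. Deviations from the group means correlated at -0.15 and 0.01 between tumours of the same number. With 2 controls the deviations of one mirror those of the other, so that these values cannot decide it.

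Signs turned as follows. In the libraries with Xist Slco1c1 was at -0.062 and Rgs5 at -0.35, and without knockdown 7 and 9 Rgs5 was at -0.23. Over single tumours left out Abcb1a ran from -2.13 to 0.19, Slco1c1 from -0.31 to 1.06, Ly6c1 from -0.55 to 0.56, Apln from -0.15 to 0.64, Rgs5 from -0.62 to 1.61 and Notch3 from -0.048 to 0.50. The log2 difference of Rgs5 to Pecam1 ran from -1.49 to 0.80, that of Acta2 to Pecam1 from -0.15 to 0.12, and r of Pecam1 with Plvap from -0.51 to 0.47. Without the 2 farthest tumours r was -0.11 for Pecam1 with Cldn5 and -0.29 for Pecam1 with Plvap. The cause was not tested. Of the 17 called genes, RLE size factors kept 15, no filter kept 12 and DESeq2 kept all 17. Ratios did not change direction with a pseudocount of 0.1 CPM.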
